A study of Mus musculus with 6 samples.

Results

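The genes described here are 10 genes of the Nrf2 and antioxidant defence: Nfe2l2, Nqo1, Hmox1, Gclc, Gclm, Txnrd1, Srxn1, Sod1, Sod2 and Cat. They were chosen by name. The rule holds no measured value, but these genes and the further gene lists below were chosen with earlier results of these data known. The genes were read from the deposited gene tables by the Ensembl identifiers that carry these symbols. All 10 are in the tables, out of 24520 rows, and all 10 passed the filter on low counts that left 14667 genes for testing. RNA came from endothelium of the mouse lung, the inner lining of its vessels, whose cells had been sorted by flow cytometry. The labels give 2 genotypes of Dnmt3a, a DNA methyltransferase, with 3 libraries each: wild type (WT) and knockout (KO). The sources used here do not give the allele, any Cre driver, the strain, the age, the gate of the sort or whether each library came from its own animal, so p-values measure only the spread between these libraries, some of which may be technical. Where 3 values follow each other for a label, they are in the order of replicates 1, 2 and 3.

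Nrf2, the protein of Nfe2l2, is a transcription factor that is degraded while Keap1 binds it. Oxidants and electrophiles modify Keap1, Nrf2 then accumulates, pairs with a small Maf protein and binds antioxidant response elements beside genes of glutathione synthesis, thioredoxin reduction, quinone reduction and haem breakdown. Much of this control acts on the protein, so the RNA of Nfe2l2 need not follow its activity. In lung, where oxygen tension is high, endothelium also carries superoxide dismutases and catalase, which remove superoxide and hydrogen peroxide and depend less on Nrf2.

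Facts of the whole series bear on all values below. Library totals ran from 28136194 to 39999172 estimated counts. The summed level of 10 endothelial markers was 14107 to 18133 CPM (counts per 1e6 counts, scaled by TMM) in the WT libraries and 14140 to 16754 CPM in the KO libraries. Dnmt3a itself was higher in the libraries labelled KO, at 161 to 172 CPM against 31.8 to 37.6 CPM (log2 fold change 2.22, SE 0.11, edgeR adjusted p = 0.00157), which goes against the label, so groups are named by their labels and every difference is given as KO label over WT label. Why Dnmt3a was higher under the KO label was not tested, and the labels were kept as given. Markers of other cells varied: alveolar type 2 markers summed to 330 to 9293 CPM in the WT and 764 to 3595 CPM in the KO libraries, with 8 of 8 negative and none called. Of the fibroblast markers 7 of 7 were positive, with sums of 138 to 193 and 291 to 426 CPM, and 1 was called, the collagen gene Col3a1 (log2 fold change 1.22, SE 0.11, edgeR adjusted p = 0.0223). In such bulk samples, fewer cells of a type and less RNA per cell cannot be told apart.

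Promoter sequence was available for 8 of the 10 genes in RefSeq windows of 300 bases on GRCm38.p6 (the assembly also called mm10), from 250 bases before to 50 after each start site; Hmox1 and Gclc are named only. The core of the antioxidant response element was searched as TGACNNNGC and the AP-1 site as TGAGTCA, both on both strands; a TGACTCA followed by GC matches both motifs. The core was found in windows of 5 of the 8 genes (Nfe2l2, Srxn1, Gclm, Txnrd1 and Sod1), while 14% of all 27025 genes with a window (12.4% of the 32851 windows) hold it. The AP-1 letters were found for Srxn1, and for 5.95% of all genes (5.20% of windows). The stretches around matches that lie before the start site are shown 5′ to 3′ on the gene's strand, with matches in capitals, because they place the regulator, the glutathione and thioredoxin genes and Sod1 beside each other.
Nfe2l2 (chr2:75704875-75704913, minus strand): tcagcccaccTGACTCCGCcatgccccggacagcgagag
Gclm (chr3:122245403-122245451, plus strand): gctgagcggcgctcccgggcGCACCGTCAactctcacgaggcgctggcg
Txnrd1 (chr10:82859094-82859142, plus strand): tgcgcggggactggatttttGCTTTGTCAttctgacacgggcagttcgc
Srxn1 (chr2:152105402-152105505, plus strand): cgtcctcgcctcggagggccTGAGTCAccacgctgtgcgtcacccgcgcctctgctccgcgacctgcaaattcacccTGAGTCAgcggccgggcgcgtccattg
Sod1 (chr16:90220686-90220734, plus strand): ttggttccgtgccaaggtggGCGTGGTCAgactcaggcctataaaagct

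In Nfe2l2 the core begins 240 bases before the start, on the forward strand. In Gclm, Txnrd1 and Sod1 the match lies on the reverse strand and begins 134, 92 and 56 bases before the start; the Txnrd1 match belongs to 1 of its 3 windows. Srxn1 has the AP-1 letters 102 and 45 bases before the start, and its core match lies 29 bases after the start and is not shown. The AP-1 letters at 45 bases are followed by GC. They hold G where the core as searched holds C, so they were not counted as a core match. A match describes these letters and is not evidence of binding, and no match says only that the letters are not in this window.

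Levels were compared between the genes on the deposited TPM values, which are scaled per length. Sod1, the copper and zinc superoxide dismutase of the cytosol, stood far above the rest at 1628 ± 148 TPM (mean ± SD over all 6 libraries), 63rd of the 24520 genes. Nfe2l2 followed at 147 ± 21.7 TPM and Cat, the peroxisomal catalase, at 128 ± 14.6 TPM. Hmox1, the inducible haem oxygenase, was at 44.9 ± 8.47 TPM and Sod2, the manganese superoxide dismutase of mitochondria, at 36.8 ± 2.45 TPM. The thioredoxin and glutathione genes formed a lower tier. Txnrd1, cytosolic thioredoxin reductase, was at 14.4 ± 4.18 TPM. Gclc and Gclm, the catalytic and modifier subunits of the enzyme that makes the first step of glutathione synthesis, were at 12.7 ± 3.24 and 11.2 ± 1.54 TPM. Nqo1, a quinone reductase often used as a readout of Nrf2, was at 1.85 ± 0.354 TPM, and Srxn1, sulfiredoxin, which restores over-oxidised peroxiredoxins, at 1.76 ± 0.824 TPM. Neighbours in this order whose ranges overlapped were Nfe2l2 with Cat, Hmox1 with Sod2, Txnrd1 with Gclc, Gclc with Gclm, and Nqo1 with Srxn1; the other neighbours were separated in every library.

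**Figure D1:**
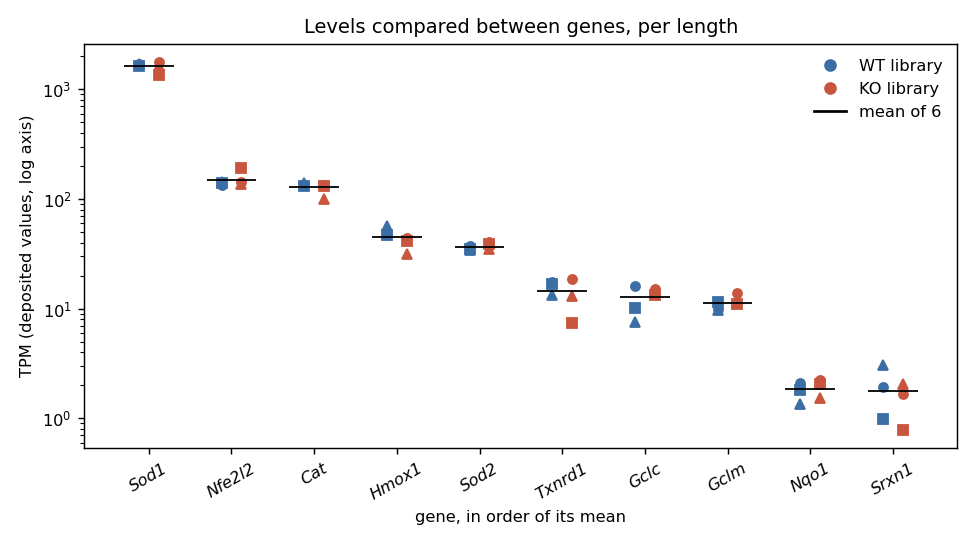
Deposited TPM of the 10 genes on a log axis, ordered by the mean over 6 libraries (black line), with WT libraries in blue and KO libraries in red and the replicate number as marker shape (circle 1, square 2, triangle 3). Sod1 lies at 1344 to 1761 TPM, whereas Nqo1 and Srxn1 lie between 0.785 and 3.07 TPM.

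The comparison of the labels asks whether these genes differ between the libraries labelled KO and those labelled WT. No member passed the edgeR quasi-likelihood test at an adjusted p of 0.05, and 0.0341% of all 14667 genes did. Hmox1 was the only member with an unadjusted p under 0.05, where 12.6% of all genes had one, and DESeq2 called 0 members, while it called 2.65% of the genes it gave an adjusted p. By the fit, 5 members lay on the positive and 5 on the negative side; their median log2 fold change was -0.06, beside 0.01 over all tested genes. The groups did not overlap in CPM for 2 members, Hmox1 and Cat, both lower in the KO libraries; among all genes 9.42% lay lower without overlap and 20.3% lay apart in either direction. With 3 libraries against 3, an exact two-sided permutation test of a single gene cannot go below 0.10.

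Nfe2l2 (ENSMUSG00000015839, mm10 chromosome 2, 75675513 to 75704641, minus strand, protein coding) was at 188, 192 and 215 CPM across the WT libraries and at 185, 264 and 188 CPM across the KO libraries. KO replicate 2 was the highest library, and the other 2 KO libraries lay within or just below the range of the WT libraries. The log2 fold change was 0.10 (SE 0.16, 95% interval -0.28 to 0.48, edgeR adjusted p = 0.816), and leaving out KO replicate 2 turned it to -0.09. In fold, the interval of the regulator ran from 0.824 to 1.40.

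Hmox1 (ENSMUSG00000005413, chromosome 8, 75093621 to 75100589, plus strand), which breaks haem into biliverdin, iron and carbon monoxide, was at 40.4, 39.3 and 51.7 CPM across the WT libraries and at 34.7, 34.0 and 26.2 CPM across the KO libraries. Every KO library was below every WT library, with WT replicate 3 the highest and KO replicate 3 the lowest. The means were 43.8 ± 6.84 and 31.6 ± 4.74 CPM (SD, n = 3 each). The log2 fold change was -0.47 (SE 0.17, 95% interval -0.86 to -0.07), which did not pass (edgeR adjusted p = 0.342, unadjusted p = 0.0259). The value was -0.33 without WT replicate 3 and -0.55 without KO replicate 1, and adjusted p-values over all alternatives ran from 0.193 to 0.699. Macrophages express Hmox1, so their markers were read beside it. Csf1r and Marco had no count in any library, Siglecf had at most 3 counts in each, and Adgre1 reached 0.578 CPM in WT replicate 1 and at most 0.0265 CPM in the other libraries. Cd68 was at 3.39 to 5.59 CPM and Mrc1 at 1.46 to 4.27 CPM over the 6 libraries. Chil3 was at 2.62, 0 and 0.477 CPM across the WT libraries and at 0 CPM in every KO library. The part of macrophages in the Hmox1 values was not tested. The sum of all 9 macrophage markers, 104 to 513 CPM in the WT and 97.8 to 304 CPM in the KO libraries, came mostly from Lyz2, which alveolar type 2 cells also express, and Mertk.

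Nqo1 (ENSMUSG00000003849, chromosome 8, 107388225 to 107403206, minus strand) had 57, 44 and 45 counts across the WT libraries and 51, 51 and 37 across the KO libraries. That is 1.73, 1.49 and 1.19 CPM against 1.72, 1.68 and 1.25 CPM, with the groups fully interleaved. Its log2 fold change was 0.08 (SE 0.39, 95% interval -0.83 to 0.98, edgeR adjusted p = 0.95), so at this depth changes of up to about 1.97-fold upward lie inside the interval.

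**Figure D2:**
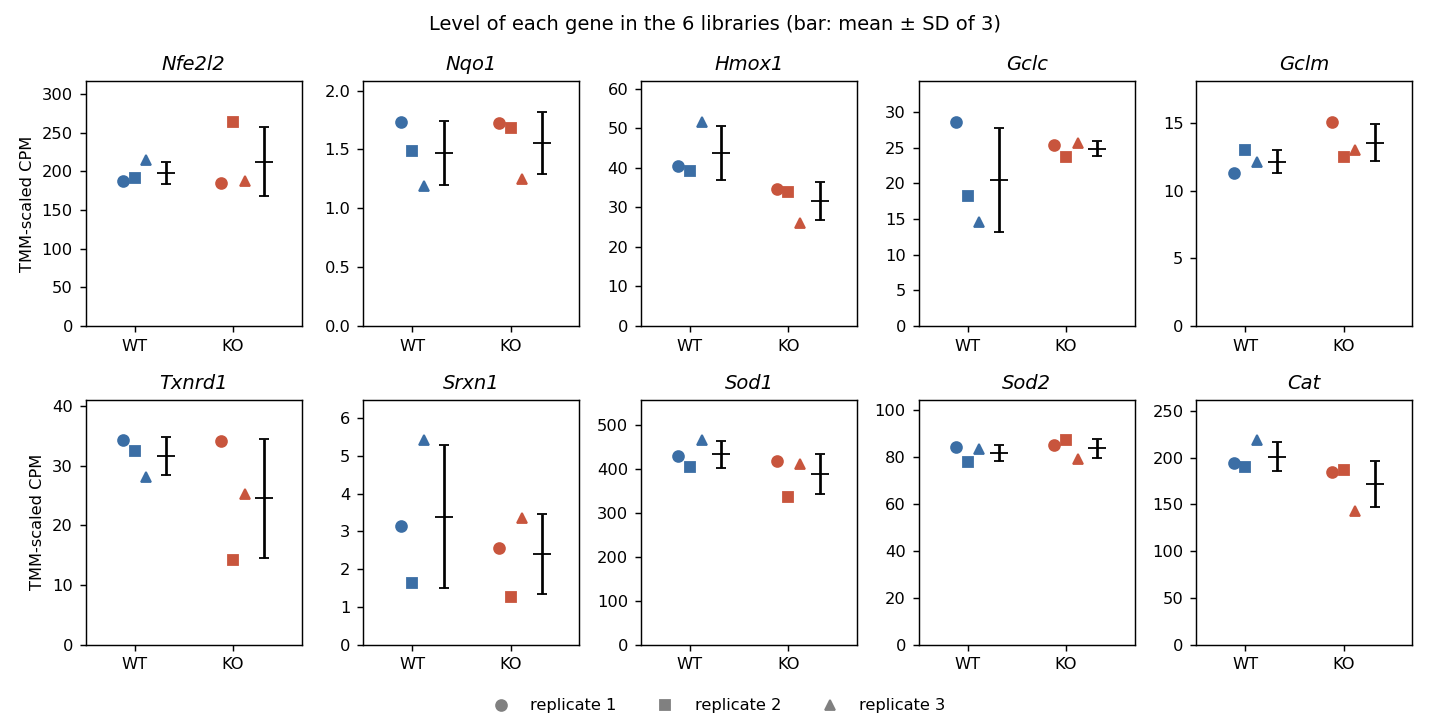
TMM-scaled CPM of each gene in the 3 WT (blue) and 3 KO (red) libraries, with marker shape for the replicate number and the mean ± SD of each group in black; every axis starts at 0. Hmox1 and Cat are the panels in which the groups do not overlap, and in the Txnrd1 panel KO replicate 2 lies at 14.2 CPM, below all other libraries.

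In the glutathione pair, Gclc varied widely within the WT label. Gclc (ENSMUSG00000032350, chromosome 9, 77754535 to 77794485, plus strand) was at 28.6, 18.2 and 14.5 CPM across the WT libraries and at 25.4, 23.6 and 25.6 CPM across the KO libraries. The KO libraries lay close together inside the wide WT range. The log2 fold change was 0.28 (SE 0.25, 95% interval -0.30 to 0.86, edgeR adjusted p = 0.65), and it was 0.60 without WT replicate 1 and 0.09 without WT replicate 3. Gclm (ENSMUSG00000028124, chromosome 3, 122245557 to 122270732, plus strand) was at 11.3, 13.0 and 12.1 CPM and at 15.1, 12.5 and 13.0 CPM in the same order. KO replicate 1 was the highest and the groups overlapped, with a log2 fold change of 0.16 (SE 0.17, 95% interval -0.24 to 0.55, edgeR adjusted p = 0.72) that was 0.06 without KO replicate 1. The catalytic subunit over the modifier subunit, as a ratio of TPM, was 1.63, 0.892 and 0.769 across the WT libraries and 1.07, 1.21 and 1.25 across the KO libraries. The KO ratios fell inside the WT range.

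Txnrd1 and Srxn1 were the most variable members. Txnrd1 (ENSMUSG00000020250, chromosome 10, 82833951 to 82897712, plus strand) was at 34.3, 32.5 and 28.2 CPM across the WT libraries and at 34.2, 14.2 and 25.3 CPM across the KO libraries. KO replicate 2 was the lowest and KO replicate 1 was level with the highest WT library. The log2 fold change was -0.37 (SE 0.29, 95% interval -1.06 to 0.32, edgeR adjusted p = 0.621); leaving out KO replicate 2 gave -0.09, and leaving out KO replicate 1 gave -0.69. Srxn1 (ENSMUSG00000032802, chromosome 2, 152105516 to 152111376, plus strand), whose stretch with both AP-1 matches is shown above, had 103, 48 and 204 counts across the WT libraries and 76, 38 and 99 across the KO libraries. Its highest library, at 5.41 CPM, was 4.31 times its lowest, at 1.25 CPM; the WT libraries ran from 1.63 to 5.41 CPM and the KO libraries from 1.25 to 3.35 CPM, so the groups overlapped. Between labels the log2 fold change was -0.50 (SE 0.55, 95% interval -1.78 to 0.78, edgeR adjusted p = 0.723), and it was 0.01 without WT replicate 3 and -0.84 without WT replicate 2. Reads of Txnrd1 could include those of Eid3, a gene within its bounds on the same strand, which had 12 to 30 counts per library against 429 to 1126 for Txnrd1.

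Sod1 and Sod2 were measured most precisely. Sod1 (ENSMUSG00000022982, chromosome 16, 90220754 to 90226329, plus strand) was at 429, 403 and 464 CPM across the WT libraries and at 416, 334 and 411 CPM across the KO libraries. KO replicate 2 was the lowest and the other KO libraries lay among the WT values, with a log2 fold change of -0.16 (SE 0.13, 95% interval -0.46 to 0.15, edgeR adjusted p = 0.632) that was -0.06 without KO replicate 2. Its end overlaps Scaf4 on the other strand, which had 526 to 798 counts against 10125 to 17500 for Sod1. Sod2 (ENSMUSG00000006818, chromosome 17, 13006846 to 13040063, plus strand) was the least variable member, at 84.1, 77.8 and 83.1 CPM and at 84.9, 87.0 and 79.2 CPM in the same order. Its log2 fold change was 0.04 (SE 0.10, edgeR adjusted p = 0.897), and the 95% interval in fold ran from 0.878 to 1.197. Sod1 over Sod2 in TPM was 47.4 ± 2.30 in the WT and 41.6 ± 6.36 in the KO libraries (SD, n = 3 each), the lowest ratio being 34.4 in KO replicate 2.

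Cat (ENSMUSG00000027187, chromosome 2, 103453849 to 103485160, minus strand) was at 194, 190 and 219 CPM across the WT libraries and at 185, 187 and 143 CPM across the KO libraries. KO replicate 3 was well below the rest, and the other 2 KO libraries were just under the lowest WT library. In TPM the groups overlapped, at 132 to 139 in the WT and 99.1 to 135 in the KO libraries. The log2 fold change was -0.23 (SE 0.14, 95% interval -0.55 to 0.10, edgeR adjusted p = 0.515), and it was -0.11 without KO replicate 3.

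**Figure D3:**
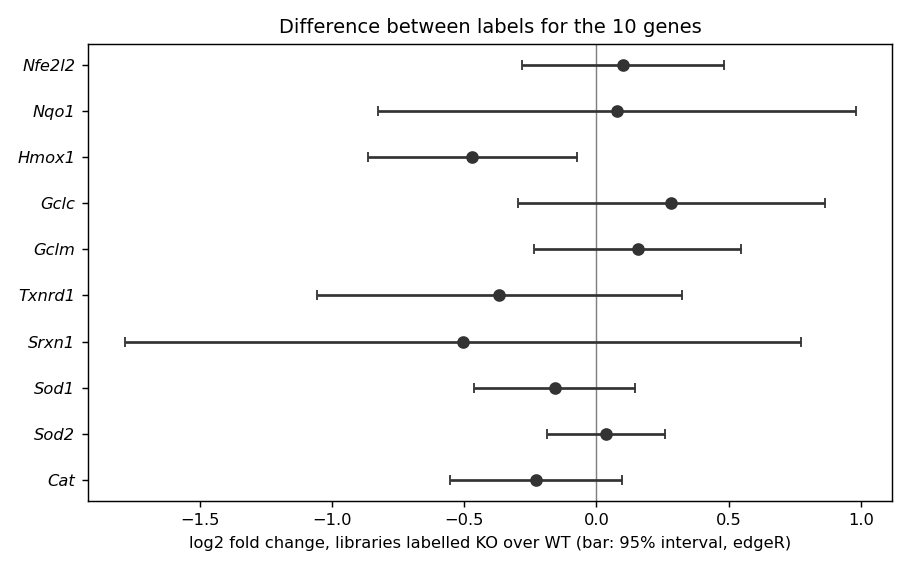
Log2 fold change of the libraries labelled KO over those labelled WT for each gene (point) with its 95% interval from edgeR (bar). Only the interval of Hmox1, -0.86 to -0.07, does not cross 0, and that of Srxn1 is the widest.

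The libraries deviated in different members. KO replicate 2 held the highest value of Nfe2l2 and Sod2 and the lowest of Txnrd1, Srxn1 and Sod1. WT replicate 3 held the highest of Hmox1, Srxn1, Sod1 and Cat and the lowest of Nqo1 and Gclc. KO replicate 3 held the lowest of Hmox1 and Cat. These 2 genes had the second smallest root mean square difference of any pair of members, 0.13. It was taken between centred log2(CPM + 1) values over the 6 libraries. The smallest was 0.11, for Nqo1 and Sod2, and the largest was 0.67, for Gclc and Srxn1. A small value can come from little variation in both members, so it need not mean a shared pattern. In KO replicate 2, Nfe2l2 lay 0.37 above its own mean on the log2(CPM + 1) scale. Nqo1 lay 0.10, Gclc 0.09, Sod2 0.07 and Cat 0.01 above theirs. In the same library Txnrd1 deviated by -0.89, Srxn1 by -0.70, Sod1 by -0.29, Hmox1 by -0.12 and Gclm by -0.03. Adding 1 before the log shrinks deviations most for Nqo1 and Srxn1, at 1.19 to 5.41 CPM. Sizes are therefore not fully comparable between these members and the others.

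**Figure D4:**
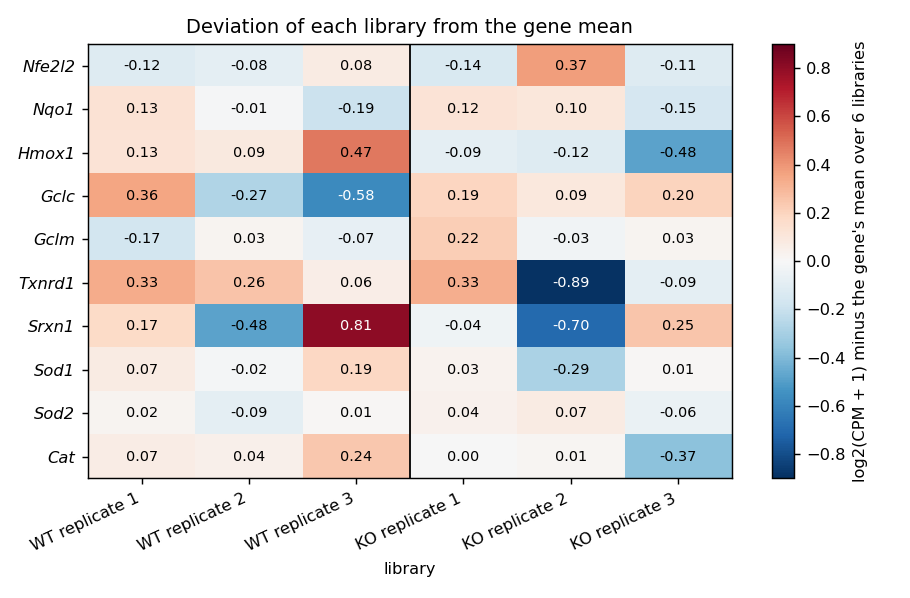
Each cell gives log2(CPM + 1) of a gene in a library minus that gene's mean over 6 libraries, red above and blue below, with the WT libraries left of the line and the KO libraries right of it. Txnrd1 and Srxn1 are lowest in KO replicate 2, and Hmox1 and Cat are lowest in KO replicate 3.

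Among 11638 other genes, those with the pattern most like Nfe2l2 over the 6 libraries were Polr3gl, a subunit of RNA polymerase III, Unc119b and Cep95, a centrosomal protein, each at a root mean square difference of 0.03 or 0.04, where the median gene was at 0.29. Polr3gl was at 57.8 to 67.4 CPM in the WT libraries and at 60.1, 85.3 and 58.4 CPM across the KO libraries, so it shared the high value of KO replicate 2. For Srxn1, the member with the largest log2 fold change in size, the most alike were Wdr19, a protein of cilia, at 0.11, Ctnnal1 and Sh3kbp1, an adaptor protein, where the median gene was at 0.54. Wdr19 was at 1.92, 0.914 and 2.997 CPM across the WT libraries and at 1.18, 0.693 and 1.93 CPM across the KO libraries.

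Other genes of the pathway were read from lists that together hold 101 genes, 96 of them tested; some genes are in more than 1 list. None passed the edgeR test in either direction. At an unadjusted p under 0.05, 5 were on the higher and 12 on the lower side, beside 6.88% and 5.77% of all genes. On the negative side were 59 of 96 (median log2 fold change -0.12), beside 7197 of all 14667 genes. Without WT replicate 3 the 12 became 6 of 97, the median was -0.03, and the share of all genes on the lower side was 3.02%. With the alveolar type 2 marker sum as a covariate, 53 of 96 were negative (median -0.05, beside 0.03 over all genes). In that fit 12 were again lower at an unadjusted edgeR p under 0.05, beside 4.65% of all genes. DESeq2 called 3 of the 96, all lower, beside 1.21% of all genes on that side and 2.65% in either direction. These 3 are named after their values were seen: Gstm2, a glutathione transferase, Gpx8, a peroxidase of the endoplasmic reticulum, and Prdx6, a peroxiredoxin.

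The partners and inhibitors of Nrf2 were read as a list that also holds the related factors Nfe2l1 and Nfe2l3. Its genes were mostly on the higher side, with a median of 0.22. Of the list, 10 of 13 were positive, including Nfe2l1 and Nfe2l3, beside 7470 of all 14667 genes. Keap1 was at 63.6, 64.7 and 79.2 CPM across the WT libraries and at 73.4, 83.5 and 67.8 CPM across the KO libraries, with overlapping groups (log2 fold change 0.11, SE 0.13; 0.03 without KO replicate 2). Keap1 over Nfe2l2 in TPM was 0.264 ± 0.0132 in the WT and 0.270 ± 0.0306 in the KO libraries (SD, n = 3 each). Sqstm1, the autophagy receptor p62, which binds Keap1, was at 110, 136 and 117 CPM in the WT and 146, 174 and 166 CPM in the KO libraries, and the groups did not overlap (log2 fold change 0.42, SE 0.13, edgeR adjusted p = 0.305); 10.9% of all genes lay higher without overlap. Rbx1, a subunit of the ubiquitin ligase and the most abundant of this list, had a log2 fold change of -0.06 (SE 0.10), and Bach2, a repressor related to Bach1, had -0.22 (SE 0.16).

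Other known targets of Nrf2 lay on the lower side in 25 of 32 tested genes, with a median of -0.16, and 8 of the 32 were lower without overlap, beside the 9.42% of all genes. Ftl1, the ferritin light chain and the most abundant of them, was at 2028 to 2068 CPM in the WT and 1687 to 1881 CPM in the KO libraries (log2 fold change -0.20, SE 0.11, edgeR adjusted p = 0.463). Gstm2 was at 111, 121 and 169 CPM across the WT libraries and at 79.8, 70.1 and 77.7 CPM across the KO libraries (log2 fold change -0.81, SE 0.17, edgeR adjusted p = 0.24, DESeq2 adjusted p = 0.00219). Its KO libraries were tightly grouped below the WT ones; Gstm genes are close copies, between which reads can be split. Me1, malic enzyme, had the largest positive value, 0.52 (SE 0.47), which was 0.11 without KO replicate 1. Gpx2, a glutathione peroxidase of epithelia, had the largest negative value, -2.20 (SE 1.04), with overlapping groups. Gpx2 was at 4.53, 0.237 and 2.94 CPM across the WT libraries and at 0.879, 0.660 and 0.135 CPM across the KO libraries, and the alveolar type 2 marker sum was 9293, 330 and 4113 CPM and 3595, 2354 and 764 CPM in the same libraries; the part of those cells in the Gpx2 values was not tested.

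Among the genes of glutathione use, 8 of 19 were positive, with a median of -0.06. Gpx4, which reduces lipid peroxides, was the most abundant, with a log2 fold change of -0.13 (SE 0.12; -0.04 without WT replicate 3). Gpx8 was at 26.2 to 40.3 CPM in the WT and 17.7 to 25.1 CPM in the KO libraries (log2 fold change -0.78, SE 0.22, edgeR adjusted p = 0.293, DESeq2 adjusted p = 0.0464). Gpx3, the secreted plasma peroxidase, was at 20.2, 19.2 and 17.5 CPM across the WT libraries and at 22.1, 139 and 20.9 CPM across the KO libraries. Its log2 fold change of 1.68 (SE 0.71) came down to 0.18 without KO replicate 2.

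The peroxiredoxins, which reduce hydrogen peroxide, had 5 of 6 genes on the negative side. Of these, 3 genes, Prdx2, Prdx4 and Prdx6, had an unadjusted p under 0.05 on that side, beside 5.77% of all genes. This subset was set apart after its values were seen. Prdx6 was at 275, 209 and 278 CPM across the WT libraries and at 188, 171 and 172 CPM across the KO libraries (log2 fold change -0.52, SE 0.14, edgeR adjusted p = 0.293, DESeq2 adjusted p = 0.0268). Prdx2 was at 325 to 358 CPM in the WT and 200 to 280 CPM in the KO libraries, and Prdx4 at 74.8 to 86.2 and 51.8 to 65.0 CPM. Every KO library was below every WT library for these 3 genes and for Prdx3 (log2 fold change -0.27, SE 0.13), so 4 of the 6 were lower without overlap, where 9.42% of all genes were. Over the whole thioredoxin and peroxiredoxin list 11 of 18 were negative, with a median of -0.14. Txnip, which binds and inhibits thioredoxin, was the most abundant, and its log2 fold change of 0.47 (SE 0.32) was 0.06 without KO replicate 2. Msrb3, a methionine sulfoxide reductase, had 0.91 (SE 0.42), with overlapping groups.

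**Figure D5:**
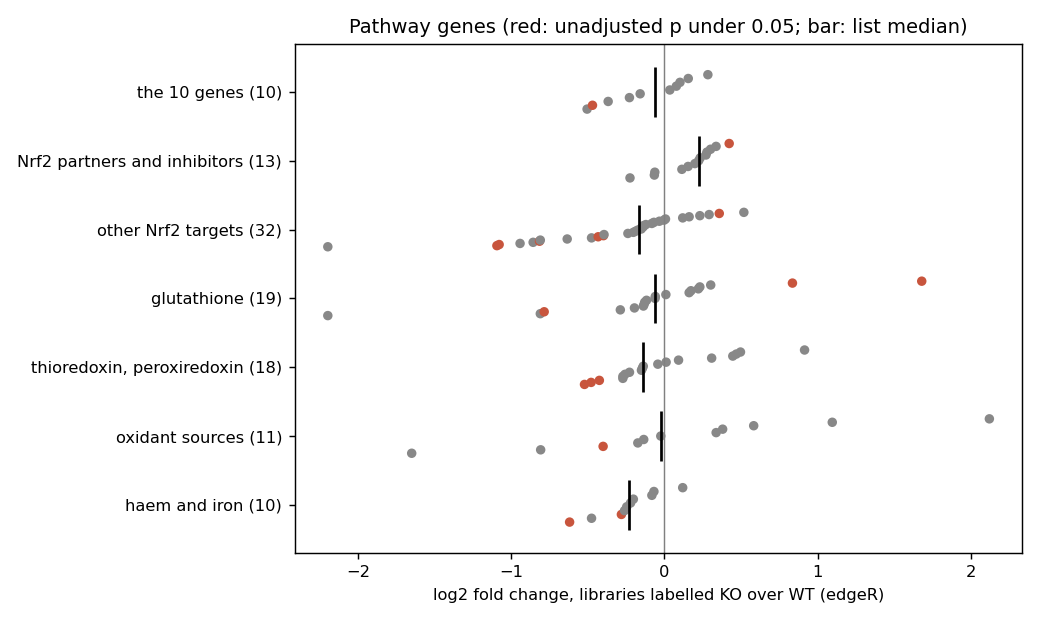
Log2 fold change of each tested gene (point) in the 10 described genes and in 6 pathway lists, with the number of tested genes in brackets, red where the unadjusted edgeR p is under 0.05 and a black bar at the list median. No point passed the adjusted threshold. The medians run from -0.23 in the haem and iron list to 0.22 in the list of Nrf2 partners and inhibitors. The latter list also holds the related factors Nfe2l1 and Nfe2l3.

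Genes of haem and iron had 9 of 10 members on the negative side, as Hmox1 was, beside 7197 of all 14667 genes. The list median was -0.23, and 5 of the 10 were lower without overlap, beside 9.42% of all genes. Blvrb, Fech, Fth1, Ftl1 and Slc48a1 are also in the list of other Nrf2 targets, so these counts repeat in part. Hmox2, the constitutive haem oxygenase, was at 63.7, 64.3 and 75.9 CPM across the WT libraries and at 58.4, 55.1 and 54.4 CPM across the KO libraries (log2 fold change -0.28, SE 0.11, edgeR adjusted p = 0.373). Slc40a1, the iron exporter ferroportin, was at 10.5 to 16.1 and 7.81 to 10.0 CPM (log2 fold change -0.62, SE 0.22, edgeR adjusted p = 0.342). Fth1, the ferritin heavy chain, was the positive member, at 0.12 (SE 0.15), and turned to -0.04 without KO replicate 2. Hmox1 over Hmox2 in TPM was 0.476, 0.457 and 0.509 across the WT libraries and 0.445, 0.462 and 0.360 across the KO libraries, so that the ratios overlapped. Erythroid markers, which include haemoglobins, summed to 901 to 3699 CPM in the WT and 657 to 2466 CPM in the KO libraries, with 6 of 6 negative, and their part in the haem list was not tested.

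Of the oxidant sources, 5 of 11 tested genes were positive, with a median of -0.02. Cyba, the p22phox subunit of NADPH oxidases, was the most abundant, at 130, 130 and 167 CPM across the WT libraries and at 108, 95.3 and 121 CPM across the KO libraries (log2 fold change -0.40, SE 0.15, edgeR adjusted p = 0.344). Nox1, an oxidase catalytic subunit, had -0.81 (SE 0.42), which was -0.37 without WT replicate 3. Xdh, xanthine dehydrogenase, was at 38.4, 32.5 and 75.1 CPM in the WT and 50.5, 547 and 37.4 CPM in the KO libraries. The high value in KO replicate 2 carried its log2 fold change of 2.12 (SE 0.998), which was -0.15 without that library.

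Sod3, the extracellular superoxide dismutase, was at 5.26, 1.76 and 14.4 CPM across the WT libraries and at 31.99, 29.3 and 9.95 CPM across the KO libraries, with overlapping groups (log2 fold change 1.73, SE 0.74, edgeR adjusted p = 0.393). The sum of 5 pericyte and smooth muscle markers was 303, 95.4 and 424 CPM and 506, 457 and 107 CPM in the same order, and the part of those cells in the Sod3 values was not tested. For Ccs, the copper chaperone that loads Sod1, the log2 fold change was -0.14 (SE 0.14; -0.03 without WT replicate 3). The metallothionein Mt1 ranged from 1.02 to 9.95 CPM over both labels (log2 fold change -0.12, SE 0.92), and its sign turned with single libraries, from -0.62 without WT replicate 2 to 0.38 without KO replicate 3.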

How the data were processed

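Estimated counts per gene, in whole numbers and not normalized, and TPM values were deposited by the authors. Per the submitters' processing notes, kallisto and mm10 were used; the sources used here do not give the version, the annotation or any use of strand. The deposited TPM columns sum to 875864 to 885609. Symbols and positions came from GENCODE M21 (24298 of 24520 identifiers), and promoter windows from RefSeq.

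Rounding changed 0 counts. edgeR 4.0.16 (R 4.3.3, limma 3.58.1) ran its quasi-likelihood test on all 6 libraries with TMM factors, filterByExpr by group and no covariate, with Benjamini-Hochberg adjustment over all 14667 genes. The standard error is the size of the log2 fold change over the square root of F. CPM values are TMM-scaled. The floor of 3 counts is 0.075 to 0.107 CPM before scaling, for counting error only. Libraries of a label differed by more than sampling noise in every pair (chi-square over its degrees of freedom, 47.4 to 106). In simulated data for this comparison (14342 genes) edgeR found 43.4% of the 99 genes set to a 2-fold difference, 75% of the 100 set to 4-fold and 12 unchanged genes, and DESeq2 found 60.6%, 86% and 69.

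The members and lists were chosen with earlier results of these data known. Named from each list were genes past the threshold, the highest mean TPM and the largest changes in each direction with a mean count of at least 50; Keap1 and further genes outside that rule were named after their values were seen. Marker lists are endothelial, alveolar type 1 (30.4 to 133 CPM), alveolar type 2, airway (12.7 to 812 CPM), macrophage, B cell (2.81 to 9.51 CPM), T and NK cell (1.35 to 2.78 CPM), neutrophil (1.33 to 4.62 CPM), fibroblast, mural and erythroid. The alternatives were DESeq2 1.42.0, RLE factors, library size only, 2 filters, the replicate block, robust dispersions, limma-voom, 3 limma fits on log2(TPM + 1 or 0.1), an alveolar type 2 covariate, a sex term read from Xist and Y-linked genes, and leaving out each library.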

Additional observations from a re-analysis of the deposited data

How the results depend on the processing

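No member was called under any of the 19 alternatives, and the lowest adjusted p was 0.193, for Hmox1 by DESeq2. Of 189 member values under the alternatives, 4 had the other sign, all from leaving out a library: Nfe2l2 without KO replicate 2 (-0.0854), Nqo1 without WT replicate 3 (-0.0532) or KO replicate 1 (-0.0092), and Srxn1 without WT replicate 3 (0.0066). Leaving out each library in turn gave -0.0854 to 0.185 for Nfe2l2, -0.0532 to 0.210 for Nqo1 and -0.839 to 0.0066 for Srxn1. Nqo1 could not be fitted with a mean count of at least 50. Over all genes, edgeR called 5; DESeq2 called 389, edgeR with the sex term called 2, and edgeR without each library in turn called 1 to 4 (1 without WT replicate 1 or 3, 2 without KO replicate 3, 3 without KO replicate 1). With the replicate number as a block edgeR called 0 (1472 at an unadjusted p under 0.05). Deviations of same-numbered libraries correlated at 0.282, -0.048 and -0.18, so the numbers were not taken to pair the samples, and not every library correlated best with its own number. No scaling moved the median of all genes by over 0.1. The intervals were widest for Srxn1 and Nqo1, the members with the lowest mean counts, 94.7 and 47.5.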
